A study of Piaractus mesopotamicus with 9 samples.

Results

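The miR-1 family of cultured pacu muscle cells was examined in 9 small RNA libraries. Pacu (Piaractus mesopotamicus) is a South American freshwater fish, and its fast-twitch muscle was the source of the cells. The family was taken as every reference entry of the normalised table whose name, without the species prefix, is miR-1 followed by something other than a digit. This gave 12 of the 1769 entries. Where several entries had equal values in each of the 9 libraries, they were merged into 1 distinct profile, which left 2 profiles of the 953 in the table. The first, dre-miR-1, is named after its zebrafish entry and holds the counts of 11 entries (Astatotilapia burtoni, common carp, zebrafish, Japanese pufferfish, Atlantic cod, zebra mbuna, Neolamprologus brichardi, Nile tilapia, Pundamilia nyererei, Atlantic salmon and green spotted pufferfish). The second, ola-miR-1-3p, is the entry of the medaka alone. The 2 profiles may hold reads in common and are not shown to be independent, as set out below.

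All cells were grown for 8 days, by when myotubes had formed, and were then starved of amino acids. In the AA group, myotubes were starved for 12 h and then given a medium with amino acids. In the IGF1 group, myotubes were starved for 12 h and then given recombinant insulin-like growth factor 1 from gilthead sea bream in the medium without amino acids. In the CTR group, myotubes stayed in the medium without amino acids, for 36 h in all. The treatment protocol gives 24 h of AA or IGF1, while the characteristics of the samples give 12 h. Each group had 3 libraries. The libraries of a group came from independent cell cultures, each made from the muscle of several juvenile fish, and the labels do not say whether a replicate number stands for the same culture in all groups. The AA medium (DMEM) also differs in its base from the starvation medium, so that amino acids and the other components of DMEM cannot be told apart.

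miR-1 is one of the miRNAs made almost only in skeletal and cardiac muscle of vertebrates. It is transcribed together with miR-133a, under the control of the myogenic transcription factors, and rises as myoblasts leave the cell cycle and fuse. In mammals it favours differentiation, for example by repressing HDAC4, a histone deacetylase that holds back muscle genes. miR-206 is its close relative with the same seed, the stretch at the 5′ end that pairs with target mRNAs. miR-133 has been linked to myoblast proliferation, and miR-499 lies within a myosin heavy chain gene and is known for its part in slow fibres. No sequences were read here, so the letters in which the medaka entry and the other miR-1 entries differ are not shown.

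The zebrafish entries summed to 9628698 to 11198743 counts in the AA libraries, 10628865 to 12908097 in the IGF1 libraries and 7627252 to 12074547 in the CTR libraries. Any pair of libraries of a group differed beyond counting noise (chi-square of at least 141.6 per degree of freedom). The skeletal muscle list held miR-1, miR-206, miR-133 and miR-499, and all of these had counts. Together they made up 0.194% to 0.276% of zebrafish counts in AA, 0.0757% to 0.0851% in IGF1 and 0.0439% to 0.0683% in CTR. This list includes miR-1 itself, and every other list also had counts for all its markers. The values therefore do not test the muscle identity of the cells. Markers of fibroblasts or smooth muscle (miR-143, miR-145, miR-199 and miR-214; 4 of 4 with counts) were more abundant, at 6.18% to 7.97% in AA, 5.95% to 7.77% in IGF1 and 6.26% to 6.66% in CTR. The lists for endothelium, blood, neurons, liver and epithelium each stayed at or below 0.0242% in every library. How far the makeup of the cultures enters the miR-1 values was not tested, and in bulk RNA fewer muscle cells and less miR-1 per cell cannot be told apart.

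miR-1 was higher in AA than in CTR. dre-miR-1 had 3869, 6395 and 8148 normalised counts (counts divided by a size factor per library) in AA, against 2075, 2716 and 3211 in CTR. Every AA library lay above every CTR library, although the lowest AA library was only a little above the highest CTR library. The means were 6137 ± 2151 in AA and 2667 ± 570.0 in CTR (SD, n = 3 each). ola-miR-1-3p was about an order of magnitude less abundant and had 267, 417 and 563 normalised counts in AA, against 88.4, 119.8 and 157 in CTR. Again the groups did not overlap, and the means were 416 ± 148 in AA and 121.7 ± 34.3 in CTR (SD, n = 3 each). Calls were made with edgeR's quasi-likelihood test over all 1769 entries, and needed both a Benjamini-Hochberg adjusted p no higher than 0.05 and a log2 fold change of 0.55 or more in either direction. Both profiles were called higher, against 2.20% of all distinct profiles called higher in this comparison. A gap in this direction between the libraries of the 2 groups was seen in 7.24% of all profiles. For dre-miR-1 edgeR estimated a 2.29-fold difference, with a 95% interval of 0.62 to 1.77 on the log2 scale and an adjusted p of 0.024. For ola-miR-1-3p the estimate was 3.42-fold, with an interval of 1.10 to 2.44 and an adjusted p of 0.00592. Both intervals come from a fit that ignores the replicate number. Among the 953 profiles, ordered from the most positive fold change down, ola-miR-1-3p stood in place 11 and dre-miR-1 in place 17, and the median of all profiles was -0.04 on the log2 scale.

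**Figure D1:**
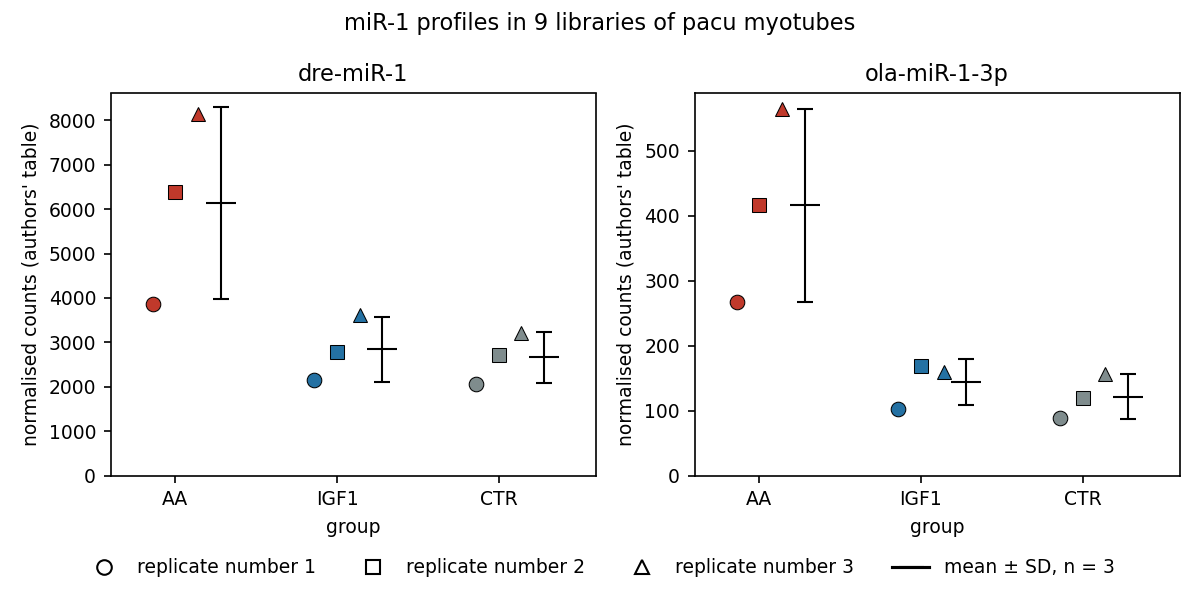
Normalised counts (vertical axes, from 0) of dre-miR-1 on the left and ola-miR-1-3p on the right in the AA, IGF1 and CTR libraries. Symbols give the replicate number and bars the mean ± SD of 3 libraries. The AA libraries of dre-miR-1 sit between 3869 and 8148 and the CTR libraries between 2075 and 3211, while the IGF1 and CTR libraries overlap.

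The share of reads, which needs no size factor, was compared as well. dre-miR-1 made up 0.0470%, 0.0612% and 0.0781% of the zebrafish counts in AA, against 0.0192%, 0.0244% and 0.0293% in CTR. In AA replicate 1, the 95% exact binomial interval of 0.0457% to 0.0483% covered counting error only and was much narrower than the gap to the other AA libraries. The log2 share was higher in AA by 1.34 on average (exact permutation test, two-sided p = 0.1, the smallest that 3 against 3 libraries can give). Ordered by abundance among the zebrafish entries, of which 258 to 267 were detected per library, dre-miR-1 was in place 67, 56 and 49 in AA and in place 84, 76 and 75 in CTR.

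In IGF1, no difference of miR-1 from CTR was detected. dre-miR-1 had 2152, 2791 and 3611 normalised counts in IGF1, against the CTR values of 2075, 2716 and 3211 given above, so each IGF1 library lay close to the CTR library of the same number. ola-miR-1-3p had 103, 169 and 160.3 normalised counts in IGF1, and its range also overlapped that of CTR (88.4 to 157). The group means of the 2 profiles in IGF1 were 2851 ± 732 and 144.1 ± 35.8 (SD, n = 3 each). For dre-miR-1 the log2 difference was 0.09 with a 95% interval of -0.48 to 0.66 (edgeR, adjusted p = 0.953). For ola-miR-1-3p it was 0.24 with an interval of -0.43 to 0.92. Neither interval excludes a difference as large as the 0.55 used as the threshold, but both come from a fit that ignores the replicate number. With the replicate number as a block in the fit, the log2 differences were 0.08 and 0.25 (edgeR, adjusted p = 0.708 and 0.489). No member was thus called in this comparison, where 0.105% of all distinct profiles were called higher in the main edgeR fit. Without the filter on low counts, and with DESeq2 in place of edgeR, the members were not called either. In the main edgeR fit, with the filter and without the block, their unadjusted p values were 0.738 (dre-miR-1) and 0.442 (ola-miR-1-3p). The sign for dre-miR-1 turned without either of 2 libraries: the log2 difference was -0.11 without IGF1 replicate 3 and -0.06 without CTR replicate 1. Within replicate numbers, where both libraries of a pair are kept, dre-miR-1 had slightly more normalised counts in IGF1 than in CTR for all 3 numbers. The log2 ratios were 0.05, 0.04 and 0.17 for dre-miR-1 and 0.22, 0.50 and 0.03 for ola-miR-1-3p, all below 0.55.

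AA and IGF1 were set against each other to test whether the 2 supplements differed in miR-1. The 3 AA libraries of dre-miR-1 (3869 to 8148 normalised counts) lay above the 3 IGF1 libraries (2152 to 3611), and those of ola-miR-1-3p (267 to 563) lay above the IGF1 libraries as well (103 to 169). Such a gap was found in 5.67% of all profiles. Both members were called higher, against 1.89% of all distinct profiles. dre-miR-1 was not called with upper-quartile factors (edgeR, adjusted p = 0.0578) or with only the AA and IGF1 libraries fitted (edgeR, adjusted p = 0.0505). With all libraries and the TMM factors edgeR gave a 2.16-fold difference for dre-miR-1 (log2 interval 0.54 to 1.68, adjusted p = 0.0381) and a 2.88-fold difference for ola-miR-1-3p (log2 interval 0.87 to 2.19, adjusted p = 0.0135). By the mean of either profile the order was AA, IGF1, CTR. Of these neighbours, the libraries of AA and IGF1 did not overlap, while those of IGF1 and CTR did. The comparisons of AA and of IGF1 with CTR use the same 3 CTR libraries.

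Leaving out 1 library ended more calls of dre-miR-1 than of ola-miR-1-3p. These fits ignored the replicate number, which most of the spread within a group followed, as given below. No library was left out of the fit with the replicate number as a block. In AA vs CTR, dre-miR-1 was no longer called without AA replicate 2, AA replicate 3, CTR replicate 1 or CTR replicate 2 (edgeR, adjusted p = 0.0844, 0.121, 0.0979 and 0.0661), while for ola-miR-1-3p none of the 9 left-out libraries ended the call. In AA vs IGF1, dre-miR-1 was lost without AA replicate 2, AA replicate 3, IGF1 replicate 1 or IGF1 replicate 2 (edgeR, adjusted p = 0.1104, 0.190, 0.120 and 0.147), and ola-miR-1-3p without AA replicate 2 or AA replicate 3 (edgeR, adjusted p = 0.0542 and 0.0737). Both profiles kept a higher value in AA in every one of these fits. In the order given, the log2 fold change of dre-miR-1 was 1.18, 0.94, 1.07 and 1.23 in AA vs CTR, beside 1.20 with all libraries, so that it moved little without AA replicate 2 or CTR replicate 2. In AA vs IGF1 it was 1.09, 0.85, 0.94 and 1.10, beside 1.11 with all libraries.

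**Figure D2:**
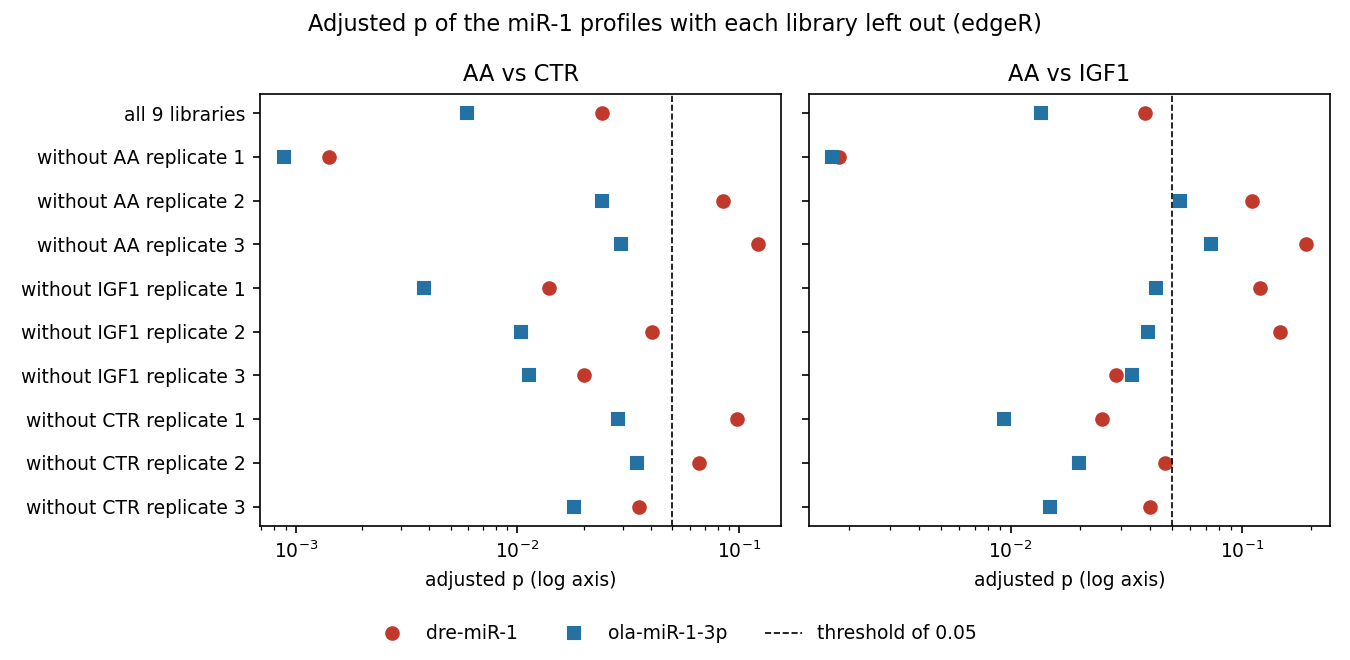
Adjusted p from edgeR (horizontal log axes) of dre-miR-1 (circles) and ola-miR-1-3p (squares) with all 9 libraries and with each library left out, for AA vs CTR on the left and AA vs IGF1 on the right. The dashed line is the threshold of 0.05, and all these fits ignored the replicate number. In AA vs CTR the squares all lie left of the line, whereas 4 of the circles for left-out libraries lie right of it.

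Much of the spread of miR-1 within a group followed the replicate number. Number 1 was the lowest and number 3 the highest dre-miR-1 library in each of the 3 groups. Of the squared deviations of its log2 CPM (counts scaled to library size) from the group means, 94.9% went with the number, and 90.3% did for ola-miR-1-3p. The same share was 89.5% for dre-miR-206-3p and 73.1% for dre-miR-133a-3p, so it was not particular to miR-1. It was not computed over all profiles. Taken within a number, dre-miR-1 was 1.86-fold, 2.35-fold and 2.54-fold higher in AA than in CTR, and the ratios of IGF1 to CTR were 1.04, 1.03 and 1.12. The corresponding ratios of ola-miR-1-3p were 3.02, 3.48 and 3.59 for AA to CTR and 1.17, 1.41 and 1.02 for IGF1 to CTR. With the replicate number as a block the standard error of dre-miR-1 in AA vs CTR was 0.0914 in place of 0.261 on the log2 scale. What the number stands for is not stated in the labels.

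The other muscle miRNAs were taken as a list of 13 distinct profiles: 8 of miR-133, 3 of miR-206 and 2 of miR-499. In AA vs CTR, 12 of the 13 were called, all of them higher, against 2.20% of all distinct profiles. The 21 profiles behind that share include these 12 and the 2 miR-1 profiles. The median log2 fold change was 2.09 for the list and -0.04 for all profiles. The miR-1 profiles thus moved in the same direction as the list with log2 fold changes of 1.20 and 1.77, inside the range of the list (0.82 to 3.02). Taking the most abundant zebrafish entry of each number and arm, the values were 2.34 for dre-miR-206-3p, 1.91 for dre-miR-133b-3p, 2.42 for dre-miR-133a-5p and 2.04 for dre-miR-499-5p. In the main edgeR fit of IGF1 vs CTR, 1 of the 13 was called higher, and it was also the only profile called higher among all 953 (0.105%). This was dre-miR-206-3p with 5593 ± 705 normalised counts in IGF1 and 2749 ± 761 in CTR (SD, n = 3 each; edgeR, log2 fold change 1.02, adjusted p = 0.046). That call was lost in 7 of the 9 fits with a library left out. Over all profiles, the number called higher in IGF1 vs CTR depended on the fit. It was 9 with DESeq2 and 10 with the replicate number as a block. With each distinct profile tested once and no block, it was 0. The list had a median of 0.25 there, beside 0.09 and 0.24 for the miR-1 profiles and 0.02 for all profiles. In AA vs IGF1, 12 of the 13 were called higher, against 1.89% of all distinct profiles, with a median of 1.55 beside -0.06 for all profiles. The 18 profiles behind that share again include these 12 and the 2 miR-1 profiles. The list was chosen with results of these libraries known, and its counts are a description. Reads were counted at more than 1 entry, so profiles of the same miRNA may share reads. The 13 profiles are therefore not shown to be independent.

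**Figure D3:**
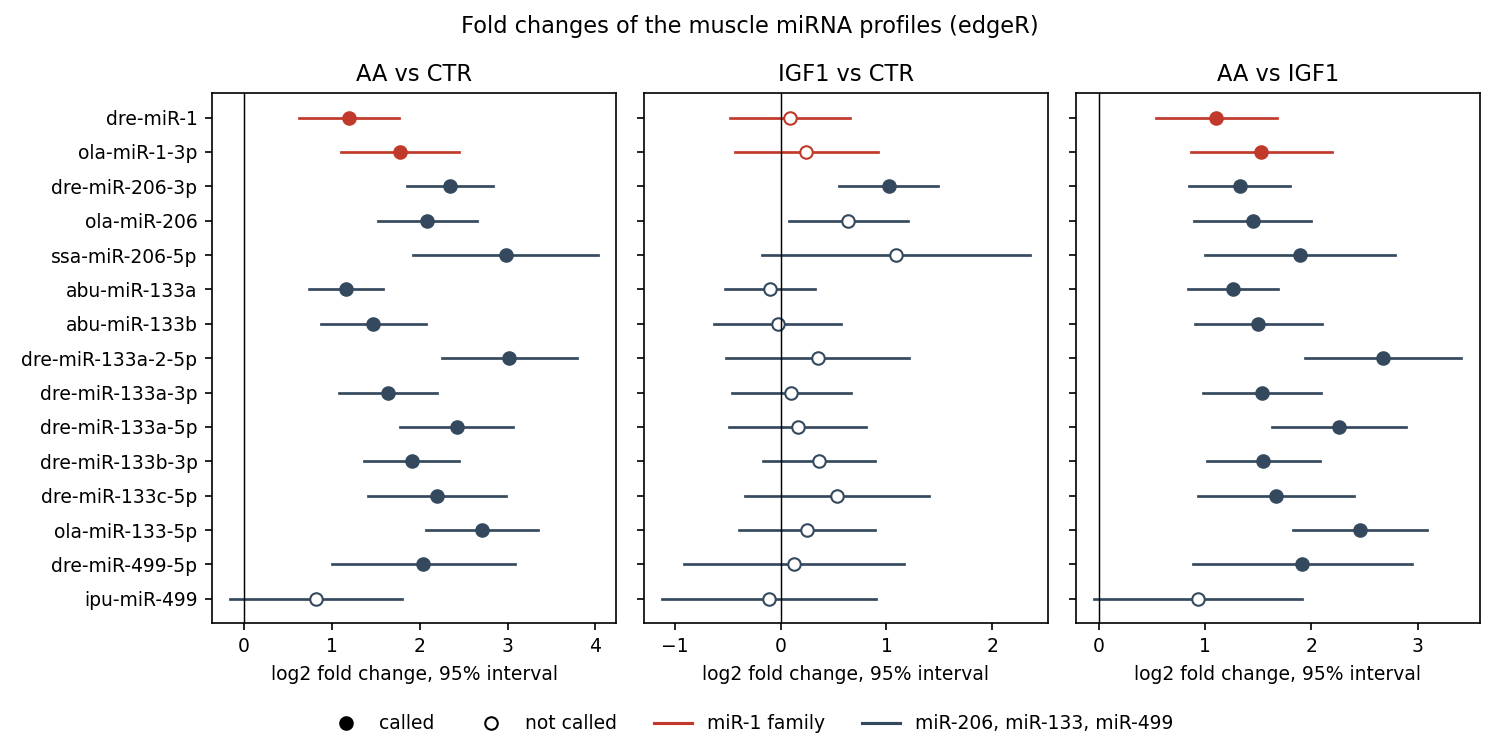
Log2 fold changes (horizontal axes) with 95% intervals from edgeR for the 2 miR-1 profiles and the 13 profiles of miR-206, miR-133 and miR-499, for AA vs CTR, IGF1 vs CTR and AA vs IGF1. Filled points were called, and the fit ignored the replicate number. The miR-1 profiles lie at 1.20 and 1.77 in AA vs CTR, and their intervals span 0 in IGF1 vs CTR.

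Ratios of raw counts inside a library were used to compare miR-1 with other muscle miRNAs without any scaling. Whether the miRNAs of a ratio share reads was not tested. Against dre-miR-206-3p, which shares its seed, dre-miR-1 was present at 0.383, 0.427 and 0.482 counts per count in AA, at 0.449, 0.476 and 0.589 in IGF1 and at 1.02, 1.02 and 0.906 in CTR. The 2 miRNAs were thus about equally counted in CTR, and dre-miR-1 was the less counted one in all AA and IGF1 libraries. The mean log2 ratio differed by -1.19 in AA vs CTR and by -0.97 in IGF1 vs CTR, with no overlap of libraries in either comparison (exact permutation tests, two-sided p = 0.1 each, the smallest possible, and 0.225 after adjustment over the 9 ratio tests). Between AA and IGF1 the ratio differed by -0.23, and the libraries overlapped (exact permutation p = 0.3), although within each of the 3 replicate numbers it was lower in AA (exact sign-flip p = 0.25, the smallest possible). Read over the 12 zebrafish entries of the 4 muscle miRNAs, miR-1 made up 24.3% to 28.3% of their counts in AA, 28.2% to 33.9% in IGF1 and 42.8% to 44.9% in CTR. miR-206 made up 58.8% to 63.4% in AA, 57.5% to 62.9% in IGF1 and 42.8% to 47.3% in CTR.

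The ratio to dre-miR-133a-3p, the mature strand of the miRNA that is transcribed with miR-1, overlapped between the groups. It was 7.47, 14.3 and 9.44 in AA, 11.9, 14.4 and 13.8 in IGF1, and 10.1, 16.3 and 14.9 in CTR. The mean log2 ratio differed by -0.43 in AA vs CTR (exact permutation, two-sided p = 0.2), by -0.02 in IGF1 vs CTR (exact p = 0.9) and by -0.41 in AA vs IGF1 (exact p = 0.3). After adjustment over the 9 ratio tests these exact permutation p values were 0.36, 0.9 and 0.386. In all 3 groups the lowest ratio was that of replicate 1 and the highest that of replicate 2. Compared within a replicate number, the ratio was lower in AA than in CTR and lower in AA than in IGF1 for all 3 numbers (exact sign-flip tests, two-sided p = 0.25 each, the smallest that 3 pairs can give). A ratio to the other strand, dre-miR-133a-5p, was not tested. In AA vs CTR its log2 fold change was 2.42, beside 1.64 for dre-miR-133a-3p and 1.20 for dre-miR-1. The values in AA vs IGF1 were 2.26, 1.54 and 1.11. The overlap thus holds for the 3p strand only.

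The log2 fold change in AA was larger for the medaka entry than for the other miR-1 entries (1.77 and 1.20 in AA vs CTR). Counts of ola-miR-1-3p came to 6.90%, 6.51% and 6.91% of those of dre-miR-1 in AA, 4.79%, 6.06% and 4.44% in IGF1, and 4.26%, 4.41% and 4.89% in CTR. All AA libraries lay above all others, and IGF1 replicate 2 stood closest to them. The mean log2 ratio was 0.59 higher in AA than in CTR and 0.42 higher in AA than in IGF1 (exact permutation tests, two-sided p = 0.1 each, the smallest possible). Between IGF1 and CTR it differed by 0.16 (exact permutation p = 0.4, adjusted 0.45). The numerator rested on 92 to 520 counts per library. Reads were counted at more than 1 entry, as the equal counts of the 11 entries of dre-miR-1 show. The sources give no rule for this, so the 2 profiles may hold reads in common.

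**Figure D4:**
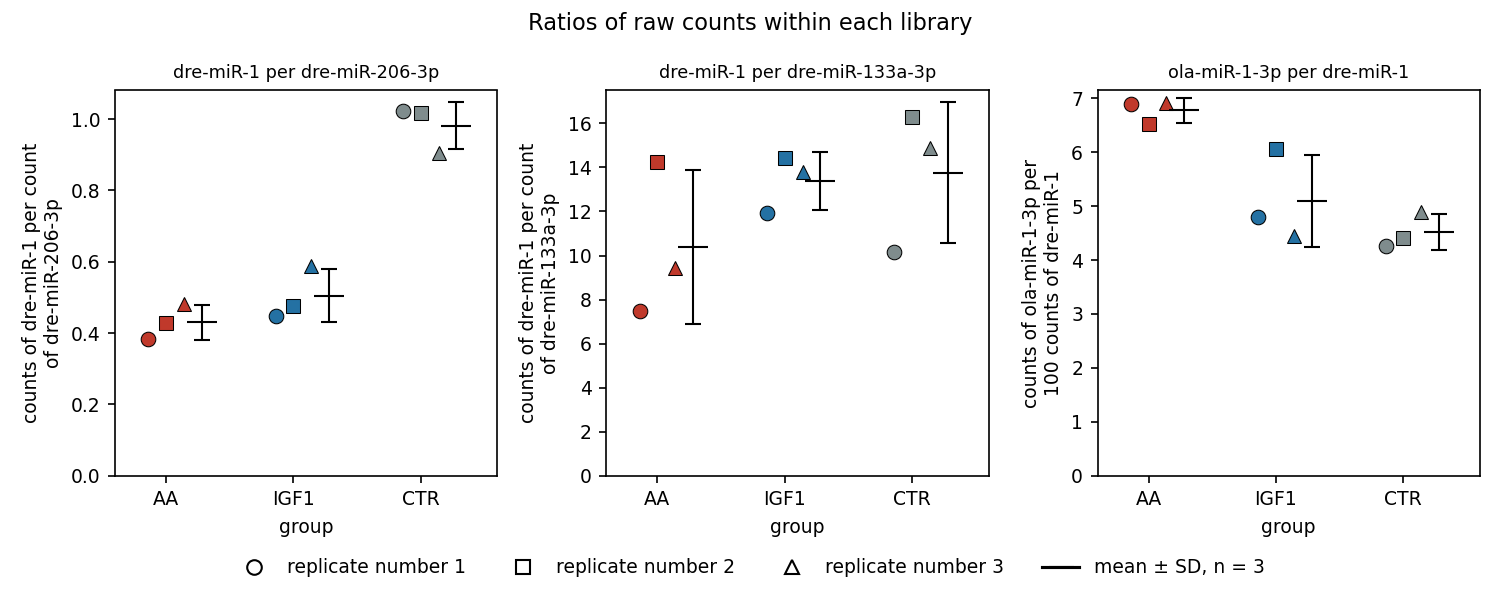
Ratios of raw counts within each library (vertical axes, from 0) for dre-miR-1 per dre-miR-206-3p, dre-miR-1 per dre-miR-133a-3p and ola-miR-1-3p per dre-miR-1 in AA, IGF1 and CTR. Symbols give the replicate number and bars the mean ± SD of 3 libraries. The first ratio lies between 0.906 and 1.02 in CTR and at or below 0.589 in AA and IGF1, the second overlaps between groups, and the third is highest in AA.

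The profiles most like dre-miR-1 across the 9 libraries were other muscle miRNAs. Likeness was measured as Pearson's correlation of log2 CPM with dre-miR-1 over the 9 libraries, which share their groups and replicate numbers, and it is given as a description. ola-miR-1-3p had a correlation of 0.977, and none of the 951 profiles outside the family reached that value. The 5 highest outside the family were dre-miR-133a-5p (0.951), dre-miR-499-5p (0.943), ola-miR-133-5p (0.943), abu-miR-133a (0.921) and ola-miR-206 (0.902). Among the 20 most alike profiles, 12 belonged to the list of 13, and the median over all profiles was -0.09. With the group means removed, the order changed. The 5 highest profiles were then ssa-miR-21a-5p (0.960), dre-miR-129-3-3p (0.949), gmo-miR-152-5p (0.937) and the nearly equal gmo-miR-145-5p and ipu-miR-145 (0.934 each). ola-miR-1-3p stood at 0.942, dre-miR-206-3p at 0.925 and dre-miR-133a-3p at 0.567. Of the 20 most alike by this measure, 2 were on the muscle list.

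**Figure D5:**
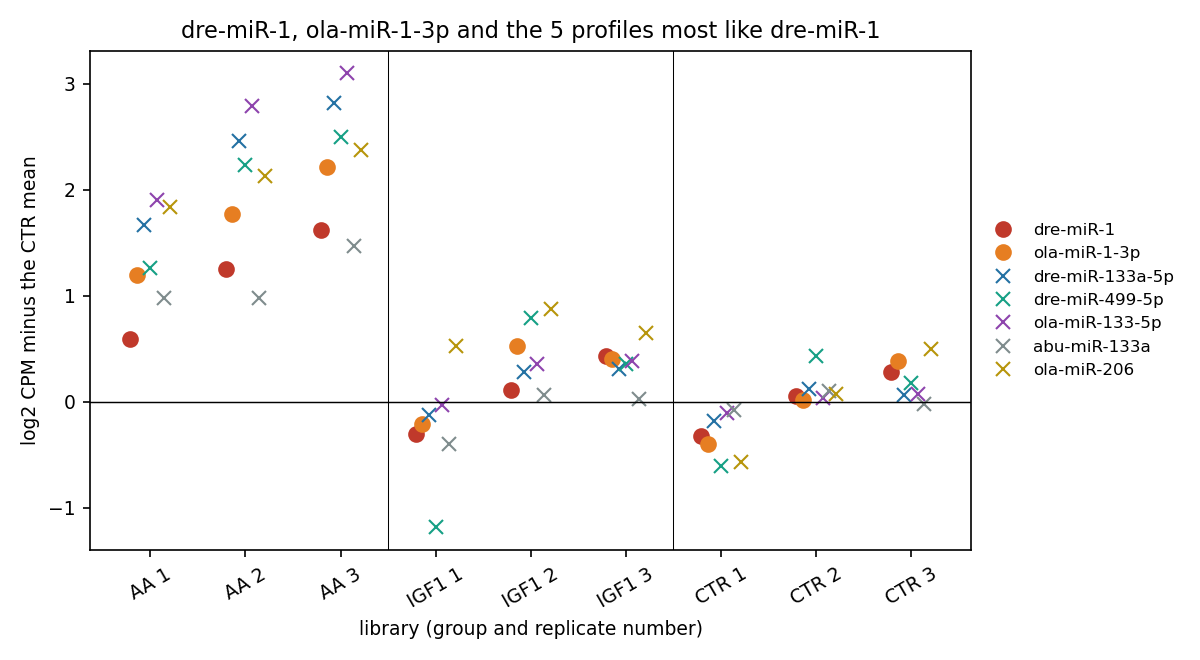
Log2 CPM minus the CTR mean (vertical axis) in each of the 9 libraries for dre-miR-1, ola-miR-1-3p and the 5 profiles outside the family with the highest correlation with dre-miR-1. Filled circles are the miR-1 profiles and crosses the others. All 7 profiles lie above 0 in the 3 AA libraries, and all but ola-miR-206 lie on both sides of 0 in IGF1. Values on both sides of 0 in CTR follow from subtracting the CTR mean. The 5 others were picked by their correlation over these same libraries, so their likeness in AA follows in part from that choice.

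The raw table held 7 further miR-1 entries whose mean was under 10 counts, and these were not in the normalised table and in no test above. They were gmo-miR-1-2-5p, gmo-miR-1-5p, ola-miR-1-5p, ssa-miR-1-3-5p, ssa-miR-1-4-5p, ssa-miR-1-5p and ipu-miR-1. Apart from ipu-miR-1 they are named as the 5p strand, the strand of the hairpin opposite to the one counted as dre-miR-1. No library had any count for 2 of them, gmo-miR-1-2-5p and ssa-miR-1-3-5p, and the other 5 formed 3 distinct count profiles.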

How the data were processed

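Small RNA libraries of AA, IGF1 and CTR myotubes (3 each) were used. The authors trimmed reads with Trimmomatic, checked them with FastQC 0.11.8, dropped short reads, aligned the rest by Bowtie2 against miRBase mature sequences from 13 bony fish species, and deposited raw counts per entry. They also deposited a normalised signal, the counts divided by a DESeq2 size factor, for the 1769 entries averaging 10 counts or more; the factors recomputed from the tables were 0.695 to 1.36.

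Raw counts of those entries were tested with edgeR 4.0.16 (TMM, glmQLFit and glmQLFTest, all 9 libraries, group only) in R 4.3.3. Entries left out held 0.00134% of the counts. DESeq2 1.42.0, other factors, filters and entry sets, the replicate block and leaving out each library were alternatives. The script was tested on simulated data. Ratios and shares were tested by exact permutation. Likeness used TMM log2 CPM (prior count 2). Fold changes are on the log2 scale unless given as fold. For the block, the ratios within a number and the sign-flip tests, the replicate numbers were taken to pair the libraries. The reason was that the deviations of all 9 same-numbered pairs from their group means correlated (0.287 to 0.566, 953 profiles). For the 18 other pairs the correlation was -0.484 to 0.151. The main edgeR fit and the exact permutation tests did not use this pairing. Named were all miR-1 profiles, the most abundant zebrafish entry per number and arm of the other muscle miRNAs, the partners of the ratios, and the 5 most alike profiles. Members and lists were chosen with earlier results of these data known.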

Additional observations from a re-analysis of the deposited data

Results flagged for a closer look

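The miR-1 entries with few counts, which the comparisons did not use, had more counts in AA than in CTR. ipu-miR-1, whose counts were the same as those of ssa-miR-1-4-5p in all 9 libraries, had 10, 2 and 16 counts in AA (28 in total), 0, 1 and 3 in IGF1 and 2, 0 and 0 in CTR. Scaled to the zebrafish counts, the ratio of AA to CTR was 14.2 with a 95% exact interval of 3.57 to 122.7, which covers counting error only. gmo-miR-1-5p, which had the same counts as ola-miR-1-5p, had 1, 1 and 6 counts in AA (8 in total), 0, 1 and 0 in IGF1 and none in CTR. ssa-miR-1-5p had 0, 1 and 5 counts in AA (6 in total), 0, 1 and 1 in IGF1 and none in CTR. With the CTR group set to a floor of 3 counts, the scaled ratios of AA to CTR were 2.70 and 2.02. These ratios leave out the counting error of the AA counts and are not lower limits. AA replicate 3 held 16 of the 28, 6 of the 8 and 5 of the 6 counts. With edgeR and no filter on low counts, none of the 3 profiles was called in AA vs CTR (adjusted p = 0.162, 0.465 and 0.662), and ipu-miR-1 had a log2 fold change of 3.43 (SE 1.10).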

How the results depend on the processing

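In AA vs CTR both miR-1 profiles were called under all settings other than a left-out library, with log2 fold changes of 1.16 to 1.35 for dre-miR-1 and 1.75 to 1.93 for ola-miR-1-3p; the zebrafish entries gave no value for ola-miR-1-3p. The replicate block changed no call of a miR-1 profile (1.16 for dre-miR-1 in AA vs CTR, edgeR adjusted p = 1.67e-06). In AA vs IGF1, dre-miR-1 was not called with upper-quartile factors (1.19, edgeR adjusted p = 0.0578) or with only these groups fitted (1.13, edgeR adjusted p = 0.0505). With each library left out in turn, dre-miR-1 ranged from 0.94 to 1.48 in AA vs CTR, from 0.85 to 1.38 in AA vs IGF1 and from -0.11 to 0.26 in IGF1 vs CTR, and ola-miR-1-3p from 1.25 to 1.80 in AA vs IGF1. In IGF1 vs CTR, the log2 share of dre-miR-1 ranged from -0.12 to 0.19 and its log2 ratio to dre-miR-133a-3p from -0.22 to 0.12. The sign turned without IGF1 replicate 3 (-0.07) or CTR replicate 1 (-0.12) for the share, and without IGF1 replicate 1 (0.07), CTR replicate 2 (0.12) or CTR replicate 3 (0.05) for the ratio. Calls on the muscle list in IGF1 vs CTR were 0 to 1 with a library left out, 2 with the replicate block (also over distinct profiles, a setting chosen after seeing the data), and 0 with edgeR under RLE or upper-quartile factors, a mean of at least 50 counts, distinct profiles, zebrafish entries or only these groups, where 1 to 2 had an unadjusted p under 0.05; DESeq2 called 1. Of all 953 distinct profiles in IGF1 vs CTR, 15 were called with the replicate block, 18 with the block over distinct profiles and 11 with DESeq2. Zebrafish entries held only 7 of the list, and all 7 were called in AA vs CTR and in AA vs IGF1. Of all 209 zebrafish entries tested, 12 were called in AA vs CTR and 9 in AA vs IGF1. With 3 libraries a group, the permutation tests could not pass 0.05, and counts under the mean of 10 gave wide intervals.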
